A study of Mus musculus with 4 samples.

Results

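Endothelial identity, junction and caveola genes were followed across 4 arrays of macrophages sorted from mouse liver at 48 h of reperfusion, when blood had flowed again after ischaemia. The set holds 34 genes of 22180 on the array, named by symbol, and where a gene had several probe sets, the brightest by its average over all arrays was read. The genes were chosen with earlier results of these same arrays known, so every level and difference below is a description without a test. A log2 level of 6 or more in at least 1 array was reached by 31 of the 34. Those just inside that limit were Gata4, with a highest level of 6.20, and Emcn, with 6.45. The genes outside it were Sox18 at 5.71, Plvap at 5.01 and Cav1 at 4.34.

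The arrays held Ly6C-hi cells of wild-type (WT) livers, Ly6C-low cells of WT livers, Ly6C-hi cells of livers labelled mPGES-1 KO, and Ly6C-low cells of livers labelled mPGES-1 KO. All were of strain C57/BL6, all came from reperfused livers, and 10 mice of each genotype were used. Ly6C is a surface antigen that is abundant on recently recruited inflammatory monocytes, and mPGES-1 is the inducible prostaglandin E synthase encoded by Ptges. Each group had 1 array, so differences lack a check by replicates, and precision is limited by the number of arrays. The sources used here do not give how many mice stand behind each array, their age, or whether the knockout was limited to a cell type. No liver without reperfusion was analysed here.

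Both labels were checked first. Ptges read 5.65 in WT Ly6C-hi, 6.32 in labelled KO Ly6C-hi, 5.69 in WT Ly6C-low and 6.20 in labelled KO Ly6C-low. It was not lower under the KO label, and the sources used here do not say whether its probes lie in the deleted part, so the genotype is named below as a label only. Ly6c2 was higher in both Ly6C-hi arrays (7.70 and 8.94) than in both Ly6C-low arrays (3.84 and 4.33). Macrophage markers marked all 4 arrays, with 8 or 9 of the 9 measured genes at log2 6 or more in each.

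Liver sinusoidal endothelial cells line the hepatic capillaries and sit beside the resident macrophages. They have open fenestrae and little basement membrane, and they take up waste molecules from blood. Their cells are joined by VE-cadherin and claudin-5, they depend on transcription factors such as GATA4 and ERG, and caveolae, small membrane pits built from caveolins and cavins, are prominent in the continuous endothelium of larger vessels. Macrophages are not known to express most of these genes. In sorted bulk cells, fewer cells of a type and less RNA per cell cannot be told apart.

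In both genotypes the Ly6C-low array carried these transcripts and the Ly6C-hi array hardly did. Log2 6 was reached by 1 of 34 genes in the Ly6C-hi array of WT and by 26 in its Ly6C-low array. Under the KO label the counts were 1 and 31. The median level of the 34 genes was 4.89 and 7.31 in the WT fractions and 4.47 and 8.76 in the labelled KO fractions. As a guide to background, the upper end of the central 95% of 1412 olfactory, vomeronasal and taste receptor genes was taken, which was 5.36 in WT Ly6C-hi and 5.92 in WT Ly6C-low, against 6.08 in labelled KO Ly6C-hi and 5.47 in labelled KO Ly6C-low. A total of 29 genes lay below that guide in both Ly6C-hi arrays. Where the dimmer array lies below its guide, a fold is given as a lower bound, computed against the guide.

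**Figure D1:**
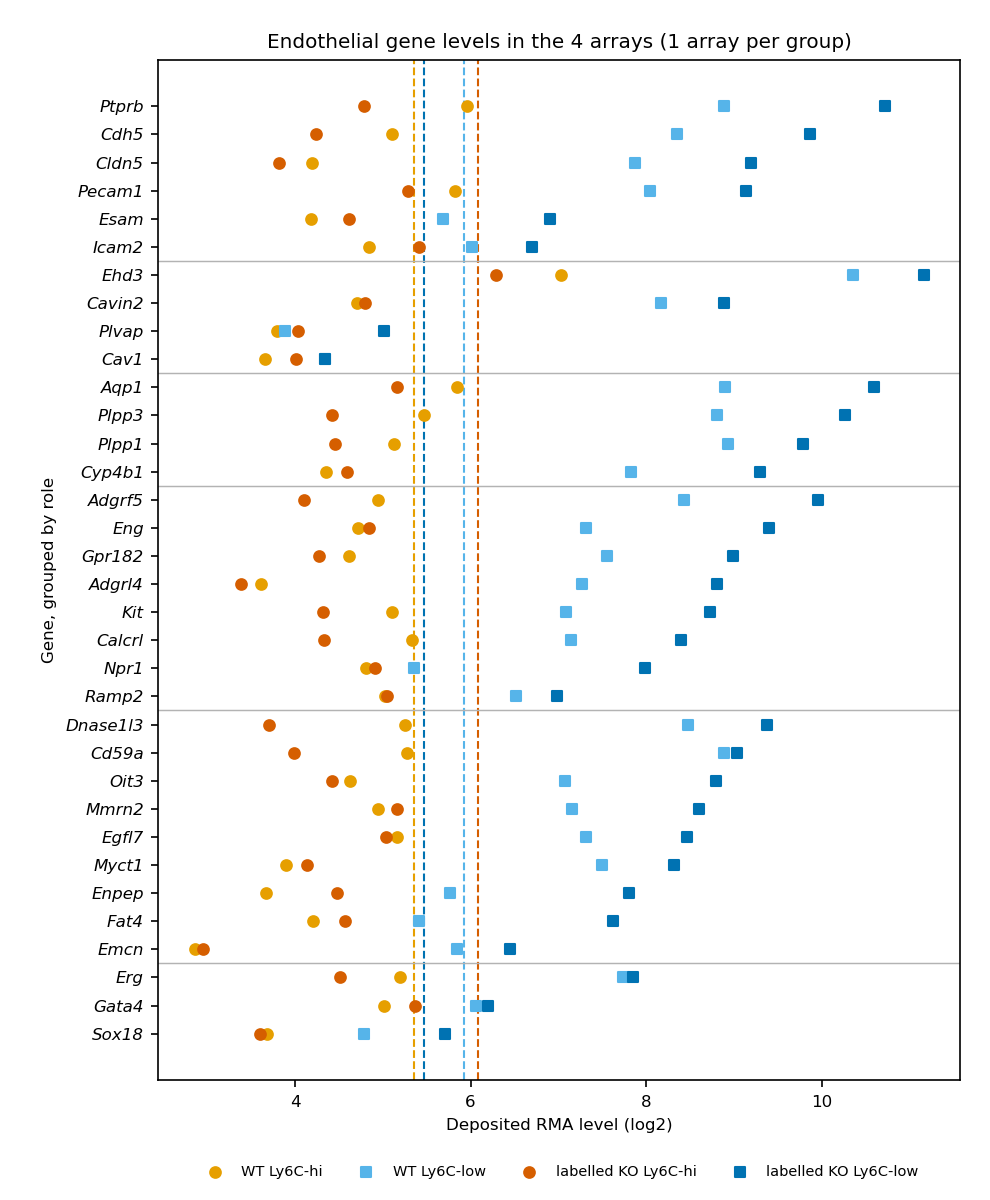
Deposited RMA level (log2, x axis) of each of the 34 genes (y axis, grouped by role, from junction genes at the top to transcription factors at the bottom) in the 4 arrays, 1 point per array. Dashed lines give each array's background guide, and in Ly6C-hi only Ehd3 reached log2 6, at 7.03 in WT and 6.29 under the KO label.

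Among the junction genes, those of VE-cadherin and claudin-5 stood far above background in Ly6C-low and below it in Ly6C-hi. Cdh5, which encodes VE-cadherin, the main adherens junction cadherin of endothelium, read 5.11 in WT Ly6C-hi and 8.35 in WT Ly6C-low, against 4.24 in labelled KO Ly6C-hi and 9.86 in labelled KO Ly6C-low. Ly6C-low was at least 7.95-fold higher in WT and at least 13.7-fold higher under the KO label. Cldn5, the tight junction claudin of endothelium, read 4.19, 7.87, 3.82 and 9.19 in the same order of arrays, at least 5.70-fold and 8.61-fold higher in Ly6C-low. Ptprb, a receptor phosphatase that acts on VE-cadherin and on the angiopoietin receptor, read 5.96, 8.88, 4.79 and 10.72. Ly6C-low was 7.52-fold higher in WT, where both arrays were above the guide, and at least 24.9-fold higher under the KO label. In each of these genes the Ly6C-low arrays were the high ones, and the labelled KO array was the higher of the pair.

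The other junction genes are less restricted to endothelium. Pecam1, the adhesion molecule CD31, which platelets and many leukocytes also carry, read 5.82 in WT Ly6C-hi and 8.04 in WT Ly6C-low, against 5.29 in labelled KO Ly6C-hi and 9.14 in labelled KO Ly6C-low. Icam2, a ligand of the leukocyte integrin LFA-1, read 4.84, 6.02, 5.41 and 6.70, and Esam, an immunoglobulin-type molecule of tight junctions that platelets share, read 4.18, 5.69, 4.61 and 6.90. Icam2 and Esam were thus close to background in WT Ly6C-low and clearly measured in labelled KO Ly6C-low only. Pecam1 was 2.22 higher in Ly6C-low on the log2 scale in WT and at least 3.06 higher under the KO label. The bounds for Icam2 were 0.65 in WT and 0.62 under the KO label, both under 2-fold, and those for Esam were 0.33 and 0.82.

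The caveola genes split into measured and unmeasured ones. Ehd3, which encodes a membrane-remodelling ATPase of the endocytic pathway and is a marker of sinusoidal endothelium, read 7.03 in WT Ly6C-hi and 10.35 in WT Ly6C-low, against 6.29 in labelled KO Ly6C-hi and 11.16 in labelled KO Ly6C-low. It was the one gene above the guide in all 4 arrays, so its fold needs no bound: 10.0 in WT and 29.3 under the KO label. Cavin2, a caveola coat protein, read 4.71, 8.17, 4.80 and 8.88. Cav1, which encodes the main structural protein of caveolae, read 3.66, 4.34, 4.01 and 4.34, and lay below the guide in every array. Plvap, the protein of fenestral and caveolar diaphragms, read 3.79, 3.89, 4.04 and 5.01 and was also below the guide throughout. The word caveola in the name of the set therefore rests on Cavin2. Ehd3 was only grouped with it, and the genes of the main caveolar protein and of the diaphragm were not measured.

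All 4 channel and lipid enzyme genes were 2-fold or more above Ly6C-hi in both Ly6C-low arrays. So were 6.57% of all genes tested in WT and 20.7% under the KO label. All 4 also had that size at their bounds, and with values raised to the guide the shares of all genes were 4.93% and 10.4%. Aqp1, a water channel, read 5.84 in WT Ly6C-hi and 8.90 in WT Ly6C-low, against 5.16 in labelled KO Ly6C-hi and 10.59 in labelled KO Ly6C-low. Plpp1 and Plpp3 encode phosphatases that remove phosphate from lysophosphatidic acid and related lipids. Plpp1 read 5.13, 8.93, 4.46 and 9.78, at least 11.9-fold higher in Ly6C-low of WT. Plpp3 read 5.47, 8.80, 4.42 and 10.26. Both phosphatase genes were high in the Ly6C-low arrays alone. Cyp4b1, a cytochrome P450, read 4.35, 7.83, 4.59 and 9.29.

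Of the receptors, all 8 had a 2-fold or larger excess in Ly6C-low under the KO label (20.7% of all genes), and 7 of 8 had one in WT (6.57%). With Ly6C-hi values below the guide set to it, 7 of 8 had that size under either label, and Ramp2 under the KO label had a bound of 0.90. With values raised to the guide, 4.93% of all genes had that size in WT and 10.4% under the KO label. The adhesion receptors Adgrl4 (3.61 in WT Ly6C-hi and 7.27 in WT Ly6C-low, against 3.39 in labelled KO Ly6C-hi and 8.80 in labelled KO Ly6C-low) and Adgrf5 (4.94, 8.43, 4.10 and 9.96), both of the G protein-coupled class, were clearly low in Ly6C-hi. Gpr182, an atypical chemokine receptor of sinusoidal endothelium, read 4.62, 7.55, 4.27 and 8.99. Eng, the endoglin co-receptor for bone morphogenetic proteins, read 4.72, 7.31, 4.84 and 9.40. In these 4 receptors the groups kept the order Ly6C-hi, WT Ly6C-low, labelled KO Ly6C-low.

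Calcrl and Ramp2 encode the receptor and the accessory protein that together form the adrenomedullin receptor. Calcrl read 5.33 in WT Ly6C-hi and 7.14 in WT Ly6C-low, against 4.33 in labelled KO Ly6C-hi and 8.39 in labelled KO Ly6C-low. Ramp2 read 5.03, 6.52, 5.05 and 6.98. Both were below the guide in both Ly6C-hi arrays, so their fraction differences under the KO label have bounds only, at least 2.30 for Calcrl and at least 0.90 for Ramp2. A further probe set assigned to both Ramp2 and Vps25 was not used, because it does not name 1 gene.

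Npr1, the guanylate cyclase receptor of atrial natriuretic peptide, was measured in 1 array only: it read 4.81 in WT Ly6C-hi and 5.36 in WT Ly6C-low, against 4.91 in labelled KO Ly6C-hi and 7.99 in labelled KO Ly6C-low. Its second probe set read 5.14, 5.27, 5.25 and 4.93 and so did not show this. Kit, the receptor of stem cell factor, is expressed by sinusoidal endothelium near the central vein and by mast cells, and read 5.11, 7.09, 4.32 and 8.72. Of 10 other mast cell and basophil genes on the array, 8 were below the guide in every array, among them Cpa3 (highest level 3.26), Mcpt4 (2.00), Cma1 (3.37) and Fcer1a (1.99). Hdc, the histidine decarboxylase gene, was above it in all 4 arrays (9.77, 6.08, 6.58 and 6.38), and Gata2 was above it in labelled KO Ly6C-low (6.0).

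Among secreted and surface genes, Dnase1l3, a secreted DNase that clears DNA of dying cells, read 5.25 in WT Ly6C-hi and 8.47 in WT Ly6C-low, against 3.70 in labelled KO Ly6C-hi and 9.37 in labelled KO Ly6C-low. Oit3, a secreted protein made by sinusoidal endothelium, read 4.63, 7.08, 4.42 and 8.79. Cd59a, an inhibitor of the complement membrane attack complex, read 5.27, 8.88, 3.99 and 9.03. The Ly6C-low arrays of Cd59a were nearly level, whereas those of Oit3 were not.

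Egfl7, a secreted protein of the vessel wall that hosts miR-126, read 5.16 in WT Ly6C-hi and 7.31 in WT Ly6C-low, against 5.04 in labelled KO Ly6C-hi and 8.46 in labelled KO Ly6C-low. Mmrn2, an extracellular ligand of CD93, read 4.94, 7.15, 5.16 and 8.60, and Myct1, a membrane protein of endothelium, read 3.90, 7.50, 4.14 and 8.31. All 3 lay below the guide in Ly6C-hi. Emcn, an endothelial sialomucin, read 2.86, 5.84, 2.95 and 6.45, and was above the guide in labelled KO Ly6C-low alone. Fat4, a large protocadherin, read 4.20, 5.41, 4.57 and 7.62, while its second probe set read 3.47, 3.38, 3.84 and 3.38. Enpep, the aminopeptidase that trims angiotensin II, read 3.67, 5.76, 4.48 and 7.80.

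Of the transcription factors, 1 of 3 had a 2-fold or larger Ly6C-low excess at its bound under either label. With values raised to the guide, 4.93% of all genes had such an excess in WT and 10.4% under the KO label. Erg, an ETS factor that maintains endothelial identity, read 5.20 in WT Ly6C-hi and 7.73 in WT Ly6C-low, against 4.51 in labelled KO Ly6C-hi and 7.85 in labelled KO Ly6C-low, at least 5.18-fold higher in Ly6C-low of WT. Gata4, which specifies sinusoidal over continuous endothelium, read 5.01, 6.06, 5.37 and 6.20, at most slightly above the guide. Sox18, an early factor of vessel formation, read 3.68, 4.79, 3.60 and 5.71.

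Counted over the set, all 26 genes measured in WT (log2 6 or more in the brighter array) had a 2-fold or larger excess in Ly6C-low, against 6.57% of 4762 genes tested, while 20.3% of genes were that much higher in Ly6C-hi. Centring each array on its median gene left 26 and moved the share of all genes to 11.7%. The median Ly6C-hi minus Ly6C-low difference was -2.99 for the 26 genes, beside 0.30 for all genes. Under the KO label 30 of 31 measured genes were higher in Ly6C-low, against 20.7% of 4541 genes and 4.47% in the other direction, with medians of -4.37 and -0.37. The exception was Gata4 (-0.83). With values raised to the guide, 24 of 26 genes had the excess in WT, beside 4.93% of all genes, and 26 of 31 under the KO label, beside 10.4%, with medians of -2.30 and -2.72. A gene that passed the limit only through Ly6C-low had to differ, so these counts describe and do not support. With no limit on level, 31 of 34 genes had that excess in WT, beside 3.49% of all genes, all but Npr1 (-0.56), Cav1 (-0.68) and Plvap (-0.10). Under the KO label 31 of 34 had it, beside 6.06%, all but Gata4, Cav1 (-0.34) and Plvap (-0.97).

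**Figure D2:**
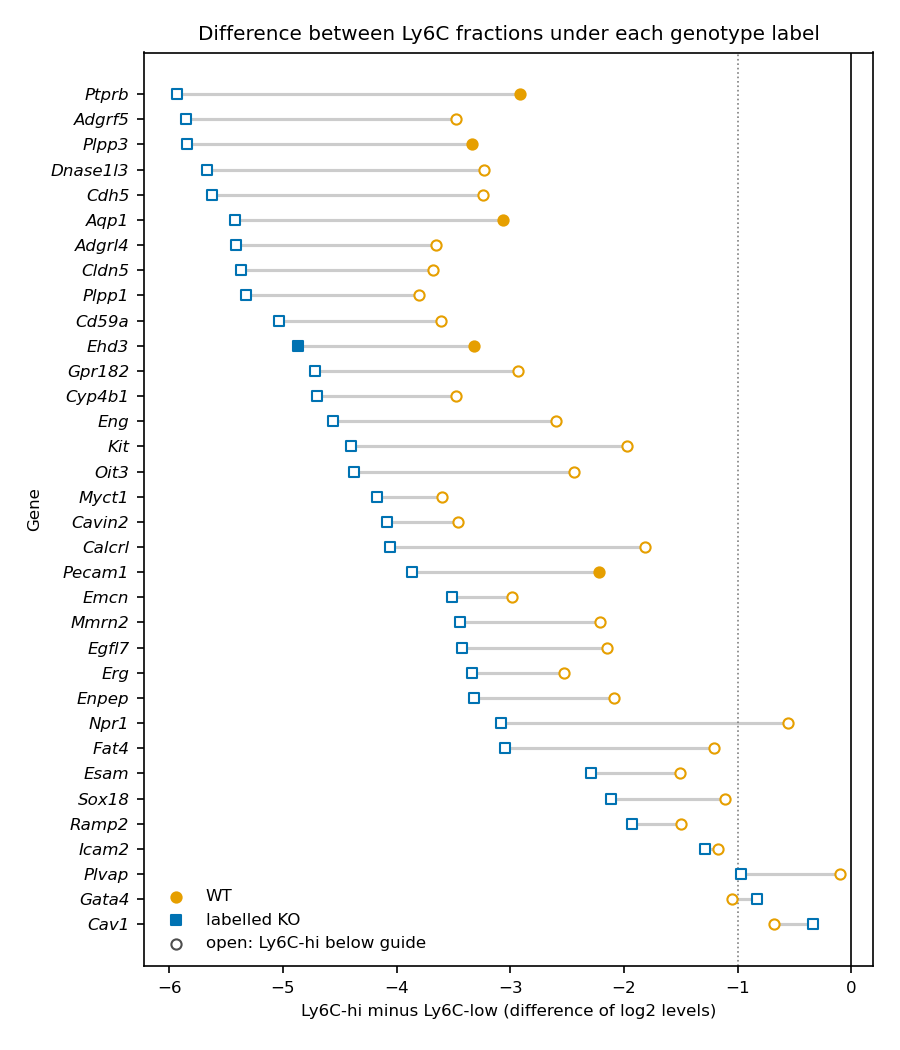
Difference between the Ly6C fractions (Ly6C-hi minus Ly6C-low, log2, x axis) for each of the 34 genes (y axis), in WT (circles) and under the KO label (squares), 1 array per group, with a dotted line at a 2-fold difference. Open symbols mark genes below the guide in the Ly6C-hi array (29 in WT and 33 under the KO label), whose sizes are not measured; Ehd3, filled in both, stood at -3.32 and -4.87.

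Other genes of these structures came from lists chosen with earlier results of these data known, without the 34 genes. They showed which parts of the machinery were measured. A gene that passed the limit only through Ly6C-low had to differ, so these counts describe and do not support. Of all genes tested, 20.7% had a 2-fold or larger Ly6C-low excess under the KO label and 6.57% in WT. With no limit on level these shares were 6.06% and 3.49%. Values in parentheses are Ly6C-hi minus Ly6C-low differences of deposited levels under the KO label, and they are not measured sizes where the Ly6C-hi array lies below the guide. Of 28 further junction genes on the array, 12 were measured under the KO label and 11 of them had a 2-fold or larger Ly6C-low excess, including the junctional adhesion molecule gene Jam2 (-4.51) and the scaffold Tjp1 (-3.04). In WT 7 of 9 had it. With no limit on level, 12 of 28 had it under the KO label and 9 of 28 in WT. Of 11 further caveola genes, 4 were measured under the KO label and 1, Cav2 (-1.89), was higher in Ly6C-low. The coat gene Cavin1 stayed between 4.62 and 5.49, and Ehd1 was higher in Ly6C-hi of WT (8.50 against 6.15). Of 14 further endothelial transcription factors measured under the KO label, 9 had a Ly6C-low excess of that size, including Epas1 (-4.36) and Meis2 (-4.14). In WT 3 of 11 had it, 1 had the opposite, and the median was 0.16. With no limit on level, 11 of 24 had it under the KO label and 5 of 24 in WT. Of 8 further genes of bone morphogenetic protein signalling, the pathway endoglin serves, 5 had it under the KO label, among them Bmp2, with 7.60 in Ly6C-low against 2.69 in Ly6C-hi. In WT 0 of 5 had it, and the median was 0.08. With no limit on level, 7 of 16 had it under the KO label and 2 of 16 in WT. Of 10 further genes of adrenomedullin and natriuretic peptide signalling, Adm alone was measured, under the KO label, and was higher in Ly6C-low (-3.02).

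In Ly6C-low, most of the set read higher under the KO label than in WT, but by unequal amounts. A 2-fold or larger excess was seen in 20 of 31 measured genes and the opposite in none, against 6.89% of 4444 genes tested and 0.81% lower. The median difference (labelled KO minus WT) was 1.32, beside 0.15 for all genes. After centring, 18 of 31 had that excess, against 4.56% of all genes. The largest differences among genes well above background in both arrays were those of Eng (2.09, a 4.26-fold difference), Ptprb (1.84, 3.59-fold), Oit3 (1.71) and Aqp1 (1.69). Npr1 was at least 4.19-fold, Enpep at least 3.67-fold and Fat4 at least 3.25-fold higher, each from a WT value below the guide. For Npr1 and Fat4 the second probe set differed by -0.34 and 0.00.

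The genotype difference in Ly6C-low was also tallied by role, and roles were not tested against each other. Of all genes tested, 6.89% were at least 2-fold higher under the KO label. Of 8 receptors 7 were at least 2-fold higher in labelled KO Ly6C-low, with a median of 1.53, and Ramp2 was the exception (0.46). The 7 include Npr1, whose second probe set differed by -0.34. Of 6 junction genes 5 were, with a median of 1.26 and Icam2 (0.68) as the exception; Esam, below the guide in WT, has a bound of 0.98. Cdh5 differed by 1.5, Cldn5 by 1.32, Esam by 1.21 and Pecam1 by 1.11. The measured caveola genes stayed under 2-fold, with Ehd3 at 0.81 and Cavin2 at 0.71, and so did the measured transcription factors Erg (0.12) and Gata4 (0.14). Cd59a (0.14) was nearly level as well, while Emcn (0.62), Myct1 (0.81), Plpp1 (0.85) and Dnase1l3 (0.90) lay between. Genes or roles of similar size cannot be separated, since there is no spread between arrays of a group.

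**Figure D3:**
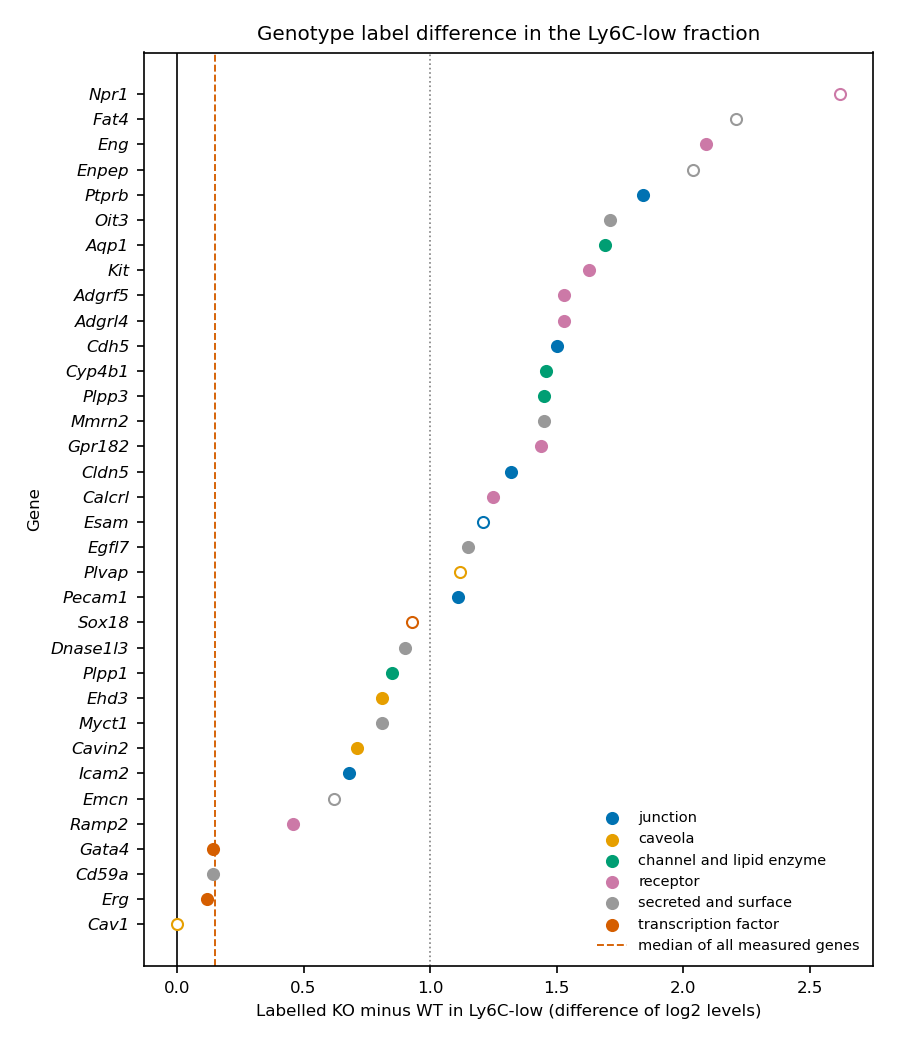
Labelled KO minus WT difference in Ly6C-low (log2, x axis) for each of the 34 genes (y axis, sorted), coloured by role, 1 array per group. Open circles are the 8 genes below the background guide in WT Ly6C-low, whose sizes are not measured, the dotted line marks 2-fold and the dashed line the median of all genes tested (0.15), with Eng (2.09) the highest filled circle and Erg (0.12) near that median.

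In Ly6C-hi the genotype difference of the set was not measurable, because 1 of 34 genes reached log2 6 in either array. That gene, Ehd3, read 6.29 under the KO label and 7.03 in WT, a difference of -0.74, where the median of all genes tested was -0.53. It did not reach 2-fold, while 20.6% of 4410 genes lay that far below WT and 2.34% that far above. With no limit on level, 5 members lay 2-fold or more below WT, beside 5.17% of all genes, namely Ptprb, Plpp3, Calcrl, Dnase1l3 and Cd59a, and all 5 were below the guide in that array.

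In deposited levels, the fraction difference was larger under the KO label than in WT for 30 of 31 measured genes, all but Gata4 (0.22). It was so for 25 of 31 with arrays centred and for 24 of 31 with values raised to the guide, where Gata4, Cd59a, Erg, Ramp2, Emcn, Icam2 and Cavin2 went the other way. Most genes tested also went this way in deposited levels, with a median difference of differences of -0.67. That median was 0.11 with arrays centred and -0.29 with values raised. The difference of differences was -1 or less in 23 of 31, against 32% of 5306 genes (3.09% at 1 or more), and its median was -1.64, beside -0.67 for all genes. With values raised to the background guide 6 of 31 were past that size, beside 16.2% of all genes, and with arrays centred 14 of 31, beside 8.04%. Its size thus changed both with how Ly6C-hi values below the guide are read and with how the arrays are scaled. With values raised to the guide, the count was near the share of all genes.

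Markers of other cells moved with the fractions and were set beside the set. Summed on the linear scale, the 34 genes amounted to 1091 in WT Ly6C-hi and 7834 in WT Ly6C-low, against 854 in labelled KO Ly6C-hi and 18371 in labelled KO Ly6C-low. The 9 macrophage genes on the array summed to 5694, 6657, 5313 and 5760, and none was at least 2-fold different between the Ly6C-low arrays. The 10 leukocyte genes summed to 8346, 4417, 6354 and 3685. Gene by gene, a 2-fold or larger Ly6C-low excess was seen in 4 of the 9 macrophage genes under the KO label, beside 20.7% of all genes. They were Mertk (-2.79), C1qa (-1.65), C1qb (-1.5) and C1qc (-1.11). C1qc read 5.33 in labelled KO Ly6C-hi, below the guide of 6.08, so its difference has no measured size. In WT 0 of 9 had that excess, beside 6.57% of all genes. Kupffer cell genes summed to 831, 1582, 563 and 1181, hepatocyte genes to 2040, 3863, 1545 and 3522, and stellate and fibroblast genes to 319, 681, 323 and 485. These 3 lists were higher in Ly6C-low with the endothelial genes, but lower in labelled KO Ly6C-low than in WT Ly6C-low. Neutrophil genes ran the other way across fractions (10980, 910, 2753 and 578). Their part in the differences of the set was not tested. Platelet genes were also present, with Pf4 at 9.84 in WT Ly6C-low and 8.64 in labelled KO Ly6C-low. Clec1b of the same list moved with the set, at 8.69 and 9.58, while Itga2b stayed at or below 5.03, and Pecam1, Icam2 and Esam are shared with platelets.

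**Figure D4:**
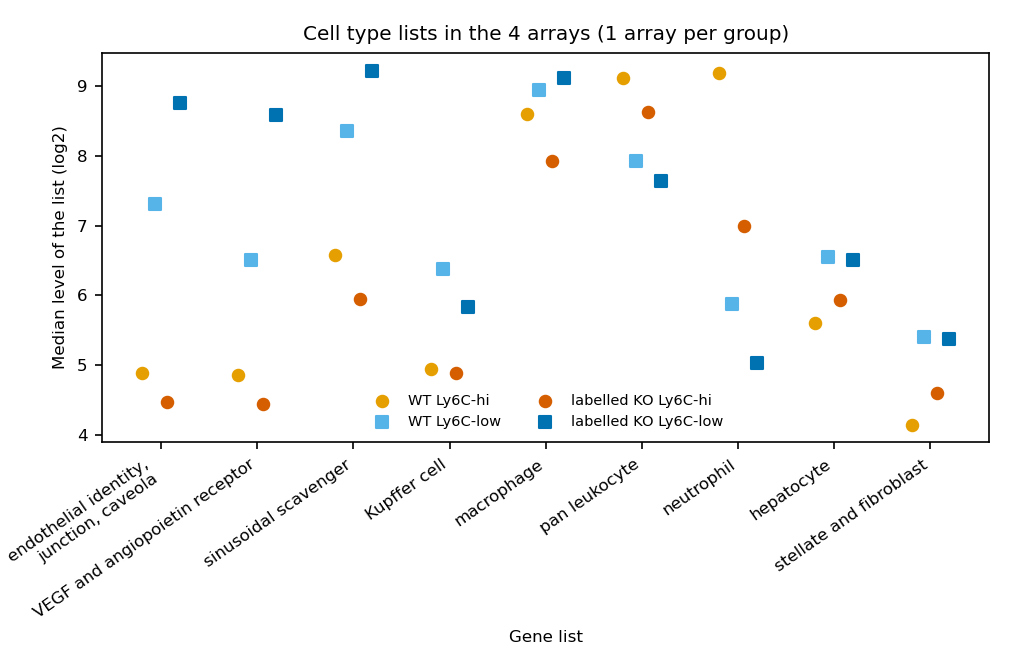
Median deposited level (log2, y axis) of the 34 genes and of 8 other gene lists (x axis) in the 4 arrays, 1 point per array. The endothelial lists are highest in labelled KO Ly6C-low (8.76 for the 34 genes), whereas Kupffer cell genes are highest in WT Ly6C-low (6.38).

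Closely related endothelial lists are given for comparison, with no test possible at 1 array per group. In Ly6C-low the 7 VEGF and angiopoietin receptor genes had a labelled KO minus WT median of 1.64, with 6 of 7 at least 2-fold higher. Across the 4444 genes tested in this comparison, 6.89% had such an excess and 0.81% had a deficit of the same size. The all-gene median was 0.15. The 9 measured sinusoidal scavenger receptor genes, several of which macrophages also express, had a median of 0.67, with 3 of 9 higher. Kupffer cell genes, which mark resident macrophages, had a median of -0.56, with a 2-fold or larger deficit in 2 of 8 and an excess in none.

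Promoter sequences of 20 of the 34 genes were listed by RefSeq (GRCm38.p6), from 250 bases before to 50 bases after each transcription start, and were searched because the genes moved together across the fractions. ETS factors such as ERG recognise a GGAA core. The form CAGGAA, on either strand, occurred in 11 of 20 genes (55%), beside 33.4% of 27025 genes with a listed promoter. The form CCGGAA occurred in 2 of 20 (10%), beside 16.7%. The letters AGATAA, read by factors of the family of Gata4, occurred in 2 of the genes (10%, beside 12.7%). The letters ACAATG, read by factors of the family of Sox18, occurred in 3 of them (15%, beside 14.3%). The core promoter form TATAAA was found in 4 genes (20%, beside 15.7%). The forms do not overlap in their full letters, genes with several starts were counted once if any start held the form, and a match does not show a bound site. The median GC content was 54.3% for these genes and 52.8% for all.

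The 250 bases before the start are printed 5′ to 3′ on the gene's strand for 5 of these genes, chosen after their values were seen, with CAGGAA and CCGGAA matches of either strand in capitals. Cavin2 (chr1:51288876-51289125, plus strand) and Myct1 (chr10:5593478-5593727, plus strand) are shown for Ly6C-low excesses in WT of at least 2.81 and 2.14, not the largest of the set. Calcrl (chr2:84425267-84425516, minus strand) is shown for its 2 matches. Npr1 (chr3:90465867-90466116, minus strand) is shown for a genotype difference in Ly6C-low of at least 2.07, and Cd59a (chr2:104095551-104095800, plus strand) for one of the smallest.
Cavin2: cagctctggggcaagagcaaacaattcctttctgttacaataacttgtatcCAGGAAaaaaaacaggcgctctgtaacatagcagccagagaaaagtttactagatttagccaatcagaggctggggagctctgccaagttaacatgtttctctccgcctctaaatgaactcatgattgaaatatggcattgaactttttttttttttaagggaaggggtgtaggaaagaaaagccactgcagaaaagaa
Myct1: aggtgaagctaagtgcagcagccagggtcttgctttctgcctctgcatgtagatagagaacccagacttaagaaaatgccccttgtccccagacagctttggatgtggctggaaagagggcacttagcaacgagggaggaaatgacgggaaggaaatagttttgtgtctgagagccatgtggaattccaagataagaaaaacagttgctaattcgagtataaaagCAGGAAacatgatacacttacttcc
Calcrl: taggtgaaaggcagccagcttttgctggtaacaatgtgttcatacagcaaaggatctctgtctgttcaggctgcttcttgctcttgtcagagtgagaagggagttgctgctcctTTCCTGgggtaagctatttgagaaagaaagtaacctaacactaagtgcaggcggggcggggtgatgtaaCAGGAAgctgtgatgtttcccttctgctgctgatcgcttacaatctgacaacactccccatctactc
Npr1: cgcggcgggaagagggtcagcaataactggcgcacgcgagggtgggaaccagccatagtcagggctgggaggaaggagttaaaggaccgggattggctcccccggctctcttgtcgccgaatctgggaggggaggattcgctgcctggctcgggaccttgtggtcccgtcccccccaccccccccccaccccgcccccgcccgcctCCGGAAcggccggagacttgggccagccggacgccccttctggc
Cd59a: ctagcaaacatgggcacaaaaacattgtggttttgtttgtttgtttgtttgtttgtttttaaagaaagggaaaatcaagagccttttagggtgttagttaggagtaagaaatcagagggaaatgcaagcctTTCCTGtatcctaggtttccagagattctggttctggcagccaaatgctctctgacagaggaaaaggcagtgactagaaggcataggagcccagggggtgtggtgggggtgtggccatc
The match of Myct1 begins 25 bases before the start, that of Npr1 44, that of Cd59a 119 and that of Cavin2 199, and those of Calcrl begin 67 and 136 bases before it. All 5 printed genes hold a match, so they cannot show whether a match goes with a difference. Under the KO label Ehd3 (4.87), with a match, and Aqp1 (at least 4.51), with neither form, had larger Ly6C-low excesses than Cavin2 and Myct1.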

How the data were processed

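Gene expression was measured on 4 Affymetrix Mouse Gene 2.0 ST arrays, 1 for each combination of genotype label and Ly6C fraction, from 5 ng of total RNA amplified with the WT Pico kit, per the labels. Per the labels, the deposited log2 values are gene-level RMA values from Expression Console; the submitters' processing notes also name RMA. The sources used here give no versions. That the scale is log2 was inferred from the values.

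Of 41345 probe sets, 23521 had 1 gene symbol, 1814 several and 16010 none listed. Entrez IDs matched 23328 of those with 1 symbol to RefSeq (GRCm38.p6), giving 22180 genes. Members and gene lists were chosen with earlier results of these data known. Differences of log2 values were counted at 1 or more among genes at log2 6 or more in the brighter array, or in any array for the difference of differences. No test was made, since each group has 1 array. All members were named, with up to 4 examples from other lists and the genes that check labels or cell type. The steps were tested on simulated data. Python 3.11.15, numpy 2.4.6, pandas 2.3.3 and matplotlib 3.10.9 were used. Alternatives covered scaling, probe set, floor, background guide and size counted.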

Additional observations from a re-analysis of the deposited data

Results flagged for a closer look

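For 3 genes the labelled KO minus WT difference was at least 2-fold in opposite directions in the 2 fractions, lower in Ly6C-hi and higher in Ly6C-low. The differences were -1.17 and 1.84 for Ptprb, -1.05 and 1.45 for Plpp3, and -1.0 and 1.25 for Calcrl. The difference between the fractions was -3.02 for Ptprb, -2.50 for Plpp3 and -2.25 for Calcrl. It was not tested, as there is 1 array per group. All 3 genes were below the background guide in labelled KO Ly6C-hi, so their Ly6C-hi differences have no measured size.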

How the results depend on the processing

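The count of genes at least 2-fold higher in Ly6C-low stayed within 1.5 times its value under all alternatives run, from 23 to 31 in WT and from 26 to 31 under the KO label. The genotype count in Ly6C-low was 20 and stayed between 18 and 21, except that it was 11 at a log2 difference of 1.5. In Ly6C-hi the genotype count was 0 under all alternatives but no floor, which gave 5 genes. The difference of differences was past 1 in 23 of 31 genes, beside 32% of all genes. With arrays centred it was so in 14, beside 8.04%, and with values raised to the background guide in 6, beside 16.2%. With values raised, Cd59a turned to 0.58, Erg to 0.60, Ramp2 to 0.26, Emcn to 0.19, Icam2 to 0.04 and Cavin2 to 0.01. With the probe set of lowest mean, the Ly6C-hi minus Ly6C-low difference under the KO label turned to 0.32 for Npr1 and 0.46 for Fat4, the Ly6C-low genotype difference to -0.34 for Npr1, and the difference of differences to 0.45 for Npr1 and 0.37 for Fat4. Fat4's WT fraction difference, below log2 6 in both arrays, turned to 0.09. Centring shifts each array by a constant, so the difference of differences of every gene moved by the same amount, as in Pecam1 from -1.64 to -0.94. Why the arrays differ in their median gene was not tested. The raised values, the missing floor and the log2 difference of 1.5 alter by construction what is counted, through dim values raised, more genes admitted and a larger size counted. How much of each change in count comes from that was not tested. No paired analysis was possible because each group has 1 array and the labels carry no replicate numbers. Signal over background limits the Ly6C-hi values, and all differences rest on single arrays.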

Other observations

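Genes of vessel segments other than the sinusoid were partly measured, mainly in labelled KO Ly6C-low. A list for larger vessels held 21 genes on the array outside the 34 genes, and 7 reached log2 6 in either Ly6C-low array. Of these, 5 were at least 2-fold higher in the array labelled KO, beside 6.89% of all genes tested. Among the 5, Dll4, Efnb2 and Thbd (5.88) lay below the guide of 5.92 in WT Ly6C-low. They passed the limit only through labelled KO Ly6C-low, so their differences have no measured size. With no limit on level, 6 of 21 were that much higher, beside 1.94% of all genes. Dll4, a Notch ligand of arterial endothelium, read 4.73 in WT Ly6C-low and 6.73 in labelled KO Ly6C-low, and Efnb2, the arterial ephrin, read 5.20 and 6.54. Gja4, an arterial connexin, read 6.40 and 7.70. Other genes of the same list did not follow: Gja5 read 3.87 in both arrays, Bmx 3.47 and 3.29, and Hey1 5.18 and 5.50. The von Willebrand factor gene Vwf read 4.30 and 4.84, and E-selectin (Sele) read 4.60 and 4.35, all below the background guide. Of the genes of central vein endothelium, Rspo3 read 5.30 and 5.82, Wnt2 read 4.48 and 5.32, and Wnt9b read 4.64 and 5.01. Of 6 genes of a lymphatic list, 4 were below the guide in both Ly6C-low arrays, among them Prox1 (3.23 and 3.50) and Reln (3.69 and 3.61). The others, Flt4 (6.50 and 8.58) and Lyve1 (8.22 and 8.89), are also genes of sinusoidal endothelium.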
